A study of Mus musculus with 9 samples.

Results

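The transcripts of 10 core circadian clock genes were examined in differentiating mouse neural stem cells: Arntl (also called Bmal1), Clock, Per1, Per2, Per3, Cry1, Cry2, Nr1d1, Nr1d2 and Dbp. They were chosen by symbol, all 10 are among the 23420 gene symbols of the deposited table, and all 10 passed the filter that left 13839 genes to test. The cells came from the hippocampus of wild type C57BL/6J mice aged 2 days and were cultured, then moved to a medium lacking the growth factors bFGF and EGF, in which they differentiate. In that medium 3 libraries received 3 µM NAT, a small molecule known here only by that name, 3 received 3 µM P7C3-A20, an aminopropyl carbazole known for protecting newborn neurons, and 3 received the DMSO vehicle. The question put to the data was whether either compound altered the clock transcripts, and whether the compounds differed at equal dose. The sources used here do not give the length of exposure, the hour of harvest or any synchronisation of the cultures. The libraries of a group are called biological replicates without a word on separate animals or cultures, and if they shared one the p-values reflect technical spread alone.

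The mammalian clock is a feedback loop of transcription. The proteins CLOCK and ARNTL pair and bind E-box sequences, and so switch on the Period and Cryptochrome genes, whose products return to the nucleus and repress that pair. In a linked loop CLOCK and ARNTL also switch on Nr1d1 and Nr1d2, which encode the REV-ERB receptors that repress Arntl, and Dbp, an activator that works through D-box sequences. Nearly every tissue runs this loop, neural progenitors of the hippocampus among them, and in a culture that has not been synchronised single cells hold different phases, so that a bulk level averages over them.

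The sequences through which these loops act can be read beside the genes. RefSeq promoter windows (assembly GRCm38.p6, 250 bases before to 50 after a start) were found for 9 of the 10 genes, 13 windows in all. Both strands were searched for the E-box CACGTG, the variant E-box CACGTT, the D-boxes TTATGTAA and TTACGTAA, the core TAGGTCA bound by ROR and REV-ERB receptors, and the cAMP response element TGACGTCA. Stretches with a match are shown 5′ to 3′ on the strand of the gene, with the match in capitals; a match to the variant E-box reads AACGTG on this strand.
Per1, E-box, chr11:69098763-69098808, plus strand: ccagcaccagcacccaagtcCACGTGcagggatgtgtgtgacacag
Cry1, variant E-box then E-box, chr10:85185089-85185153, minus strand: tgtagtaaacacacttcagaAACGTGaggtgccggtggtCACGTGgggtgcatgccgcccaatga
Cry2, variant E-box, chr2:92434210-92434255, minus strand: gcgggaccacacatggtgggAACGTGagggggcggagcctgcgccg
Nr1d1, variant E-box, chr11:98775380-98775425, minus strand: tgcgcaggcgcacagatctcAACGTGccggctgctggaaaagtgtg
Per3, D-box in 2 copies, chr4:151044796-151044890, minus strand: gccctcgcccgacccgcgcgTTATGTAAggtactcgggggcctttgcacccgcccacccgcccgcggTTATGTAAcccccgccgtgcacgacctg
Arntl, ROR and REV-ERB core, chr7:113207531-113207557, plus strand: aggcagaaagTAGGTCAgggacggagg

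By the GENCODE annotation of GRCm38, the Arntl stretch lies in an exon, the Per1 stretch in an intron, since longer Per1 transcripts start upstream, and the other 4 outside the gene they belong to; the Per3 stretch also lies within the span of the neighbouring Camta1. Of all 32851 promoter windows, 7.15% hold CACGTG, 4.68% CACGTT, 0.938% TTATGTAA, 0.119% TTACGTAA, 2.61% TAGGTCA and 1.79% TGACGTCA. These are matches of letters in short windows, and they say nothing about which factor was bound in these cells. The windows of Clock, Nr1d2 and Dbp held no match, and Per2 was the gene without a window. Neither TTACGTAA nor TGACGTCA was found in any window of the clock genes. Sequence outside the windows was not searched.

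Whole reads recovered from the steps of the TPM values came to between 11487218 and 16929714 a library, the 3 P7C3-A20 libraries being the deepest. Over the 10 clock genes they ranged from 274 reads for Dbp in a DMSO library to 1480 for Clock in a P7C3-A20 library. Levels of genes were tilted by the GC content of the transcript to a different degree in each library. The slopes ran from -0.052 to -0.0066 log2 units per 10 percentage points of GC with DMSO, from -0.062 to 0.0070 with NAT and from 0.016 to 0.11 with P7C3-A20, highest in P7C3-A20 replicate 3. Every gene on the marker lists of progenitors, astrocytes, the oligodendrocyte lineage and neurons passed the filter, while haemoglobin genes were listed at 0. Passing it does not by itself show a cell type, as the microglia marker P2ry12 passed at a DMSO mean of 0.928 TPM. The neuron markers Rbfox3 and Syt1 were at DMSO means of 1.63 and 2.25 TPM. Most of the summed neuron level, 738.4 to 764.9 TPM with DMSO, was Map2, at 640 TPM. Of 7 microglia markers, Cx3cr1, C1qc and Trem2 were listed at 0 throughout and the summed level of all 7 was 0.818 to 2.14 TPM. Of 6 genes of the suprachiasmatic nucleus, the central clock of the brain, Six6 was listed at 0 and only Rgs16 was high enough to test; their summed level was 16.9 to 20.2 TPM with DMSO, 21.0 to 21.9 with NAT and 21.4 to 23.9 with P7C3-A20, nearly all of it Rgs16. The summed level of the 7 progenitor markers was 16770 to 17220 TPM with DMSO, 16020 to 16420 with NAT and 15500 to 16040 with P7C3-A20. Most of it was Fabp7, at means of 12200, 11410 and 10930 TPM. The others did not all follow Fabp7: Sox2 was at 607, 618 and 634 TPM and Hes5 at 154.6, 121.5 and 141.6 TPM. For the 6 astrocyte markers the summed level was 5864 to 6131, 6266 to 6444 and 5650 to 6259 TPM. For the 4 endothelial markers, of which Cdh5 and Cldn5 were listed at 0, it was 4.16 to 4.47, 5.29 to 5.45 and 4.22 to 4.81 TPM. Nearly all of the endothelial sum was the single gene Flt1, at means of 4.13, 5.13 and 4.42 TPM. The part of these mixtures in the clock values below was not tested, and in bulk samples fewer cells of a type and less RNA per cell cannot be told apart.

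All 10 clock genes were expressed at moderate levels in every library, and no clock gene passed the test in any comparison. On the TPM scale, which is per length and so allows levels of different genes to be compared, the lowest of the 10 was Per2, at percentile 32.8 of the tested genes, and the highest Nr1d1, at percentile 76.2. With DMSO the order ran from Nr1d1 (63.0 ± 4.03 TPM, SD, n = 3) through Nr1d2 (43.0 ± 0.455), Dbp (38.7 ± 3.07), Cry2 (34.9 ± 2.84), Clock (34.2 ± 0.998), Arntl (29.8 ± 1.88), Per1 (25.8 ± 1.34), Per3 (25.5 ± 1.43) and Cry1 (23.3 ± 2.09) to Per2 (13.5 ± 0.963). Neighbours in this order whose libraries overlapped were Dbp and Cry2, Cry2 and Clock, Per1 and Per3, and Per3 and Cry1. The REV-ERB gene Nr1d1 was highest and the Period gene Per2 lowest in all 3 groups.

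**Figure D1:**
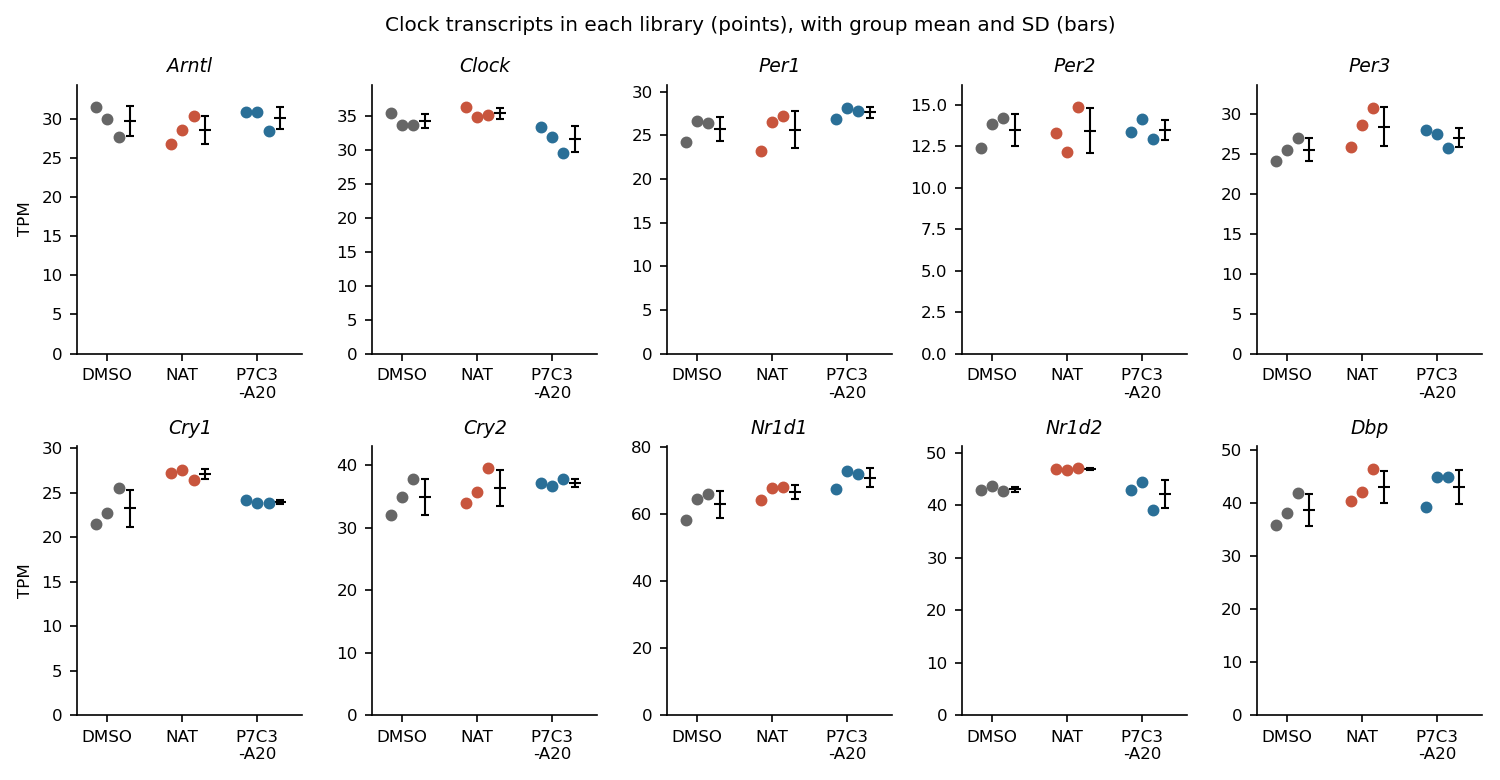
Level of each clock gene in TPM (vertical axes, starting at 0) in the 3 libraries of each group (points, replicates 1 to 3 from left to right), with the group mean and SD beside them. The NAT points lie above all DMSO points for Cry1 and Nr1d2, the P7C3-A20 points lie above them for Nr1d1 and Per1 and below them for Clock, and both compounds overlap DMSO in the other 5 panels.

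Arntl and Clock encode the activating pair. Arntl was at 31.5, 30.1 and 27.8 TPM in DMSO replicates 1, 2 and 3, at 26.9, 28.6 and 30.5 TPM with NAT and at 30.9, 31.0 and 28.5 TPM with P7C3-A20. The 3 groups overlapped. The log2 fold change against DMSO, on the scale of log2(TPM + 1) used for every fold change here, was -0.054 ± 0.064 (SE) for NAT and 0.018 ± 0.064 for P7C3-A20. Clock stood at 35.4, 33.7 and 33.7 TPM with DMSO, at 36.4, 34.9 and 35.1 TPM with NAT and at 33.4, 31.9 and 29.5 TPM with P7C3-A20. Every P7C3-A20 library therefore lay below every DMSO and every NAT library. Clock differed by -0.11 ± 0.05 between P7C3-A20 and DMSO (limma adjusted p = 0.319) and by 0.16 ± 0.05 between NAT and P7C3-A20 (95% interval 0.047 to 0.28, adjusted p = 0.215), and neither difference passed. With the GC trend of the libraries removed these differences were -0.055 and 0.075, and without P7C3-A20 replicate 3 the difference from DMSO was -0.068.

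The Period genes encode the rhythmic partners of the repressor complex. Per1, which growth factors and neuronal activity also induce, was at 24.2, 26.7 and 26.4 TPM with DMSO, at 23.3, 26.5 and 27.2 TPM with NAT and at 26.9, 28.2 and 27.8 TPM with P7C3-A20. All 3 P7C3-A20 libraries were above the DMSO libraries. The log2 fold change of Per1 for P7C3-A20 was 0.0997 ± 0.065 (adjusted p = 0.475), and -0.0016 with the GC trend removed. Per2 showed group means of 13.5, 13.4 and 13.5 TPM for DMSO, NAT and P7C3-A20, single libraries between 12.1 and 14.9 TPM, and 95% intervals of its log2 fold changes from -0.19 to 0.18 for NAT and from -0.18 to 0.18 for P7C3-A20. Per3 was at 24.1, 25.4 and 26.9 TPM with DMSO, at 25.8, 28.6 and 30.7 TPM with NAT and at 27.9, 27.4 and 25.6 TPM with P7C3-A20. Its NAT group reached higher but overlapped DMSO, with a log2 fold change of 0.15 ± 0.07 (95% interval -0.0047 to 0.30, adjusted p = 0.436), or 0.090 without NAT replicate 3.

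Cry1, a repressor of CLOCK and ARNTL whose promoter carries both kinds of E-box shown above, gave the largest difference of the 10 genes. It was at 21.5, 22.7 and 25.6 TPM with DMSO, at 27.3, 27.6 and 26.5 TPM with NAT and at 24.3, 23.9 and 23.9 TPM with P7C3-A20. All NAT libraries lay above all DMSO libraries, of which replicate 3 came closest. The log2 fold change of Cry1 for NAT against DMSO was 0.22 ± 0.06 (95% interval 0.079 to 0.35, unadjusted p = 0.00514, limma adjusted p = 0.266), a ratio of means of 1.17, and it did not pass. Between NAT and P7C3-A20 it was 0.17 ± 0.06 (adjusted p = 0.240), again without overlap, and for P7C3-A20 against DMSO 0.045 ± 0.062. Its paralogue Cry2 was at 32.0, 34.9 and 37.7 TPM with DMSO, at 33.9, 35.6 and 39.5 TPM with NAT and at 37.1, 36.6 and 37.7 TPM with P7C3-A20. Those groups overlapped, with log2 fold changes of 0.058 ± 0.067 for NAT and 0.091 ± 0.067 for P7C3-A20, or 0.030 and 0.016 with the GC trend removed. Whether Cry1 and Cry2 differed in their response was not tested.

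The REV-ERB genes gave one difference with each compound, neither of which passed. Nr1d1 was at 58.4, 64.7 and 65.9 TPM with DMSO, at 64.2, 67.8 and 68.1 TPM with NAT and at 67.6, 72.8 and 72.0 TPM with P7C3-A20. The P7C3-A20 libraries were all above the DMSO libraries, whereas NAT overlapped DMSO. Nr1d1 had a log2 fold change of 0.17 ± 0.05 for P7C3-A20 (95% interval 0.053 to 0.28, unadjusted p = 0.00817, limma adjusted p = 0.189) and of 0.083 ± 0.052 for NAT. By the GENCODE annotation 8.5% of its exonic bases lie opposite exons of Thra, a thyroid hormone receptor gene, and reads of the pair cannot be told apart if the library did not mark strand. Thra was at 243 ± 11.5 TPM with DMSO and at 273 ± 15.3 TPM with P7C3-A20 and differed by 0.17 (adjusted p = 0.169), which did not pass either. The part of Thra in the Nr1d1 values was not tested.

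Nr1d2 was at 42.8, 43.6 and 42.7 TPM with DMSO, at 46.9, 46.8 and 47.1 TPM with NAT and at 43.0, 44.4 and 39.1 TPM with P7C3-A20. NAT stood apart from both other groups. The log2 fold change of Nr1d2 for NAT was 0.12 ± 0.05 against DMSO (95% interval 0.015 to 0.23, adjusted p = 0.387) and 0.15 ± 0.05 against P7C3-A20 (0.046 to 0.26, adjusted p = 0.213), the latter 0.068 with the GC trend removed. The libraries of a group were close for this gene: the coefficient of variation was 0.349% with NAT and 1.06% with DMSO, where counting reads alone gives about 3.12% and 3.29%. The small spread of these triplets is therefore below what repeated counting would give on average.

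Dbp, the D-box activator and one of the most rhythmic transcripts of most tissues, was at 35.9, 38.2 and 42.0 TPM with DMSO, at 40.4, 42.1 and 46.4 TPM with NAT and at 39.2, 44.8 and 44.96 TPM with P7C3-A20. Both compounds gave means above DMSO, 43.0 ± 3.10 and 43.0 ± 3.26 TPM, but DMSO replicate 3 lay among their libraries. The log2 fold change was 0.15 ± 0.07 for NAT (adjusted p = 0.453) and 0.15 ± 0.07 for P7C3-A20 (adjusted p = 0.353), comparisons that share the DMSO libraries. With the GC trend removed they were 0.12 and 0.040. Without DMSO replicate 1 both were 0.099, and without NAT replicate 3 the NAT value was 0.094. Between the compounds Dbp differed by 0.0001, with a 95% interval from -0.16 to 0.16. Of its exonic bases 539 lie opposite exons of Sphk2, a sphingosine kinase gene, which stood at 19.8 ± 1.304, 19.3 ± 1.14 and 19.9 ± 1.56 TPM in the 3 groups.

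With NAT against DMSO, Cry1 and Nr1d2 were the clock genes whose groups did not overlap, both higher, and none was called. The limma test at an adjusted p below 0.05 called 0 of the 10, where it called 0.0289% of all tested genes. At an unadjusted p below 0.05 stood 2 of 10, both higher, beside 11.7% of tested genes, 8.67% higher and 3.0% lower. Groups without overlap were likewise 2 of 10 higher, beside 14.1% of tested genes higher and 4.89% lower. Of the clock genes 7 had a positive difference, beside 63.5% of tested genes, and their median was 0.070 against 0.030 for all. These shares lie near the background of the comparison. The count at an unadjusted p below 0.05 was 1 without DMSO replicate 1, NAT replicate 2 or NAT replicate 3. It was 3 without DMSO replicate 3 or NAT replicate 1. By voom on the recovered reads it was 1, and voom called 0 of the 10 and 0.21% of tested genes. How many of all tested genes stood below that unadjusted p in these fits was not counted.

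With P7C3-A20 against DMSO, Nr1d1 and Per1 were higher and Clock lower without overlap, and none was called. The test called 0 of 10, beside 0.0217% of tested genes, and Nr1d1 alone had an unadjusted p below 0.05, beside 15.9% of tested genes, 10.7% higher and 5.12% lower. Groups did not overlap for 2 higher and 1 lower, beside 13.1% and 7.49%. A positive difference was seen in 7 clock genes, beside 55.2% of tested genes, with medians of 0.063 and 0.015. The count at an unadjusted p below 0.05 became 2 without DMSO replicate 3, 3 without P7C3-A20 replicate 1 and, after GC trends were taken out, 0, beside 11.0% of tested genes. By voom 0 of the 10 were called, beside 1.97% of tested genes, and there were 2 at an unadjusted p below 0.05, Nr1d1 (adjusted p = 0.0989) and Clock. Neither by voom nor with a library left out was the share of all tested genes below that unadjusted p counted.

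Compared at the same 3 µM dose, NAT gave higher Clock, Cry1 and Nr1d2 than P7C3-A20 in all 3 libraries, and none was called. The test called 0 of 10 and 0.0% of tested genes, and 3 of 10 had an unadjusted p below 0.05, all higher with NAT, beside 15.8% of tested genes, 9.92% higher and 5.89% lower. The same 3 did not overlap, beside 13.3% higher and 8.35% lower, and 5 of 10 differences were positive, beside 54.0% of tested genes. With the GC trend removed 7 were positive, with a median of 0.048 beside 0.0009 for all. The share of positive differences among all genes was not counted in that setting. Clock and Nr1d2 have the lowest GC content of the 10 genes, 40.9% and 41.8%, and with the GC trend removed only Cry1 was left below an unadjusted p of 0.05 (0.18, adjusted p = 0.316), beside 11.7% of tested genes. Without NAT replicate 2 the count at an unadjusted p below 0.05 was 2, and by voom it was 5. The share of all tested genes below that unadjusted p was not counted in those fits. At an adjusted p below 0.05 voom called 0 of the 10, beside 2.18% of tested genes. For the other 7 genes the differences ranged from -0.11 for Per1 (95% interval -0.25 to 0.038) to 0.066 for Per3 (-0.086 to 0.22), and a p that misses the threshold does not show that the compounds act alike.

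**Figure D2:**
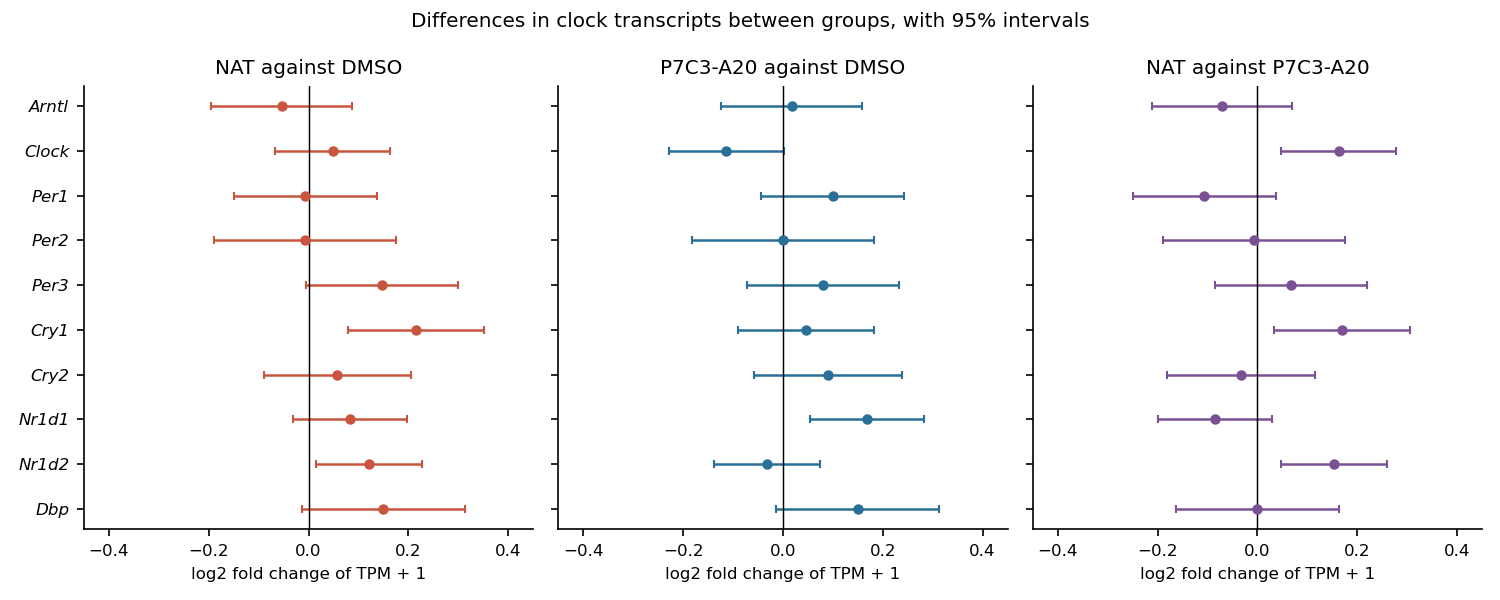
Log2 fold change of TPM + 1 (horizontal axes) of each clock gene in the 3 comparisons, with points for the estimates and bars for 95% intervals. The intervals reach from -0.25 for Per1 to 0.35 for Cry1, and those away from 0 are Cry1 and Nr1d2 for NAT, Nr1d1 for P7C3-A20, and Clock, Cry1 and Nr1d2 between the compounds.

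Over the 30 intervals of these comparisons the lowest bound was -0.25, a ratio of 0.841 on the log2(TPM + 1) scale (Per1, NAT against P7C3-A20), and the highest 0.35, a ratio of 1.28 (Cry1, NAT against DMSO). These are intervals for single genes, not adjusted for their number.

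The differences with P7C3-A20 followed the GC content of the clock transcripts. Dbp, Per1, Nr1d1 and Cry2, at 61.6%, 59.4%, 56.8% and 55.6% GC, had differences of 0.15, 0.0997, 0.17 and 0.091, whereas Clock and Nr1d2, at 40.9% and 41.8%, had -0.11 and -0.032. Over the 10 genes Pearson's r between difference and GC content was 0.88 and Spearman's rho 0.89, which describes these genes in the same 6 libraries. For NAT the values were 0.034 and 0.13. Tested genes as a whole showed the same course with P7C3-A20, with a median of -0.068 among genes of 39% to 42% GC and 0.12 among those of 60% to 63%. With each library's trend removed, r over the clock genes was 0.37, the median difference went from 0.063 to 0.013, and Nr1d1 kept the largest value, 0.083 (unadjusted p = 0.0557, limma adjusted p = 0.470). The GC trend moved with the P7C3-A20 group and was strongest in replicate 3. Without that library Nr1d1 was at 0.16 and its adjusted p at 0.343. For NAT against DMSO, Cry1 was 0.19 and Nr1d2 0.091 with the trend removed.

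**Figure D3:**
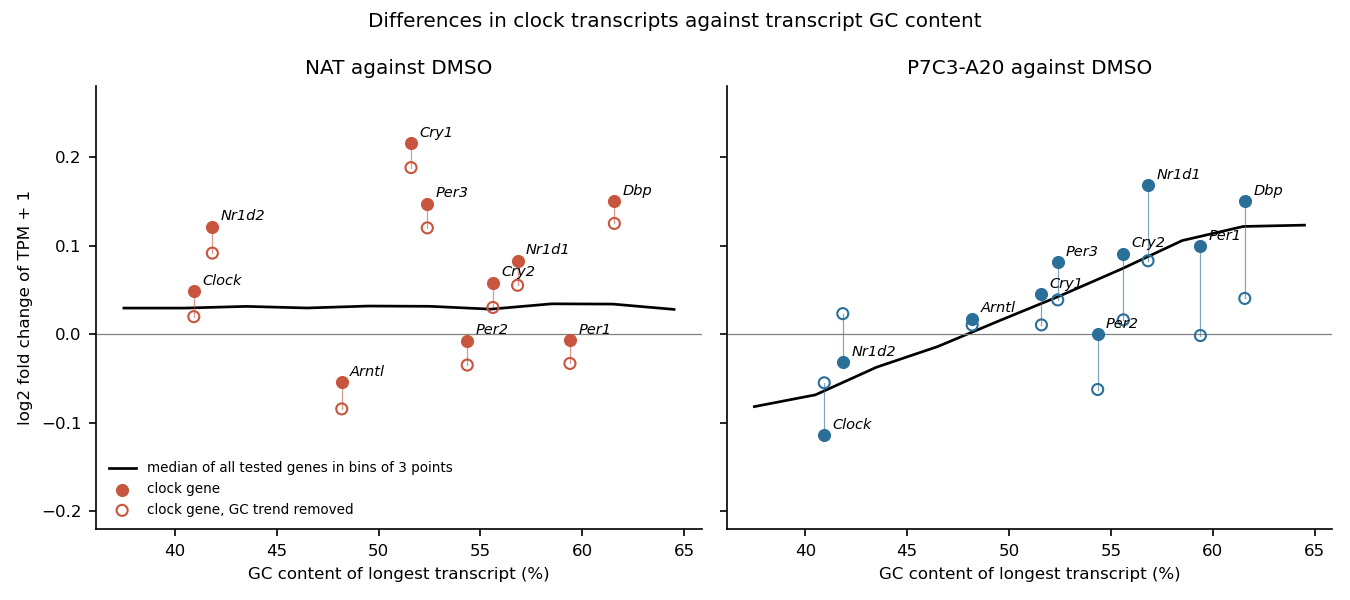
Log2 fold change of TPM + 1 of each clock gene (vertical axis) against the GC content of its longest transcript in % (horizontal axis), as measured (filled) and with the GC trend of the libraries removed (open). The black line is the median of all tested genes in bins of 3 percentage points; it is flat for NAT and climbs from -0.082 to 0.12 for P7C3-A20, with the clock genes along it.

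Within a group, the same library was often the lowest or the highest across the clock genes. The same count was not made over all tested genes, so the counts below do not set the clock genes apart from others. DMSO replicate 1 was the lowest of its group in 7 of the 10 (Per1, Per2, Per3, Cry1, Cry2, Nr1d1 and Dbp) and the highest in Arntl and Clock, while DMSO replicate 3 was highest in 6 and lowest in Arntl and Nr1d2. After removal of the GC trend DMSO replicate 1 was lowest in 8. With NAT, replicate 3 was highest in 8 of 10, Arntl among them, and replicate 1 lowest in 6. The median coefficient of variation of the 10 genes was 6.36% with DMSO, 6.73% with NAT and 4.43% with P7C3-A20. For all tested genes at levels between the lowest and the highest of the 10 it was 4.68%, 4.48% and 4.96%.

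Ratios of clock transcripts within 1 library do not depend on a factor common to all its genes, although the GC trend still enters them, Arntl being at 48.2% GC. Arntl and the E-box genes peak at opposite times in a running clock, and the log2 ratio of Dbp to Arntl is a simple readout of that contrast. It was 0.19, 0.34 and 0.60 in DMSO replicates 1, 2 and 3, 0.59, 0.56 and 0.61 with NAT and 0.34, 0.53 and 0.66 with P7C3-A20. The NAT libraries lay close together at the upper end of the DMSO range, which DMSO replicate 1 opened downwards. For Nr1d1 over Arntl the ratio ran from 0.89 to 1.246 with DMSO, from 1.16 to 1.26 with NAT and from 1.13 to 1.34 with P7C3-A20. Per1 over Arntl ran from -0.38 to -0.074, from -0.21 to -0.11 and from -0.20 to -0.035. In each ratio DMSO replicate 1 was the lowest of all 9 libraries, and the groups overlapped. With the GC trend removed, DMSO replicate 1 was again the lowest and each compound overlapped DMSO, but the compounds came apart in 2 of the 3. Dbp over Arntl was then 0.54 to 0.66 with NAT and 0.32 to 0.50 with P7C3-A20, and Per1 over Arntl -0.13 to -0.11 and -0.20 to -0.16, differences that were not tested. Both ratios share the Arntl values, and how often ratios of other genes come apart in this way was not counted.

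**Figure D4:**
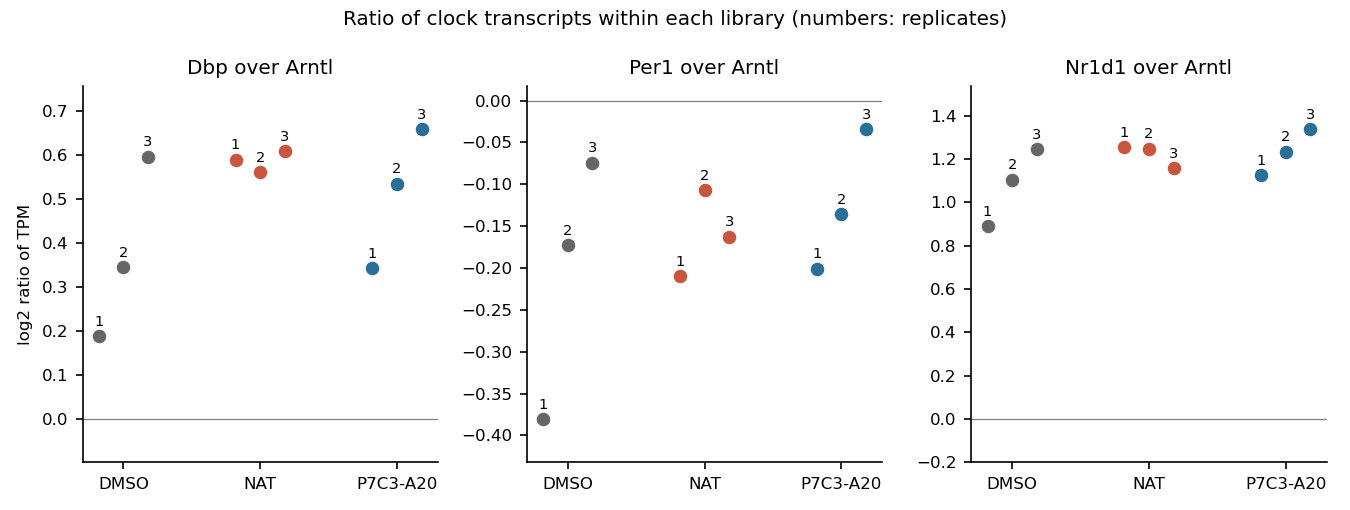
Log2 ratio of the TPM of Dbp, Per1 and Nr1d1 to that of Arntl (vertical axes) in each library of the 3 groups, numbered by replicate. DMSO replicate 1 is the lowest point in each panel, at 0.19, -0.38 and 0.89, and the groups overlap in these values, from which no GC trend was removed.

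Other genes of the clock pathway were described from a list of 30, all of which were tested. None was called in any comparison by limma or by voom, whose lowest adjusted p was 0.0651, for Hlf between the compounds. For NAT against DMSO 24 were positive, beside 63.5% of tested genes, with a median of 0.055 beside 0.030 for all. With the GC trend removed 18 were positive, with a median of 0.025 beside 0.0017 for all. In that setting the share of positive differences among all genes was not counted for any comparison. Of the 30, 4 had an unadjusted p below 0.05, all higher, beside 11.7% of tested genes. Hlf, a D-box activator related to Dbp, was at 38.2, 39.2 and 38.1 TPM with DMSO and at 45.6, 43.5 and 44.6 TPM with NAT, without overlap, and at 39.2, 42.0 and 35.8 TPM with P7C3-A20. Its log2 fold change for NAT was 0.20 ± 0.06 against DMSO (unadjusted p = 0.00364, limma adjusted p = 0.256) and 0.19 ± 0.06 against P7C3-A20 (adjusted p = 0.197). Rora, whose product competes with REV-ERB receptors and activates Arntl, was at 15.5, 16.6 and 16.1 TPM with DMSO and at 18.3, 18.2 and 22.4 TPM with NAT. Rora differed by 0.27 ± 0.10 (adjusted p = 0.382), with NAT replicate 3 the highest. The remaining pair were the kinase gene Gsk3b (0.075 ± 0.033, or 0.044 with the GC trend removed) and Usp2, which encodes a deubiquitinase with rhythmic expression (0.12 ± 0.05).

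With P7C3-A20 against DMSO 18 of the 30 were positive, or 15 with the GC trend removed. The 18 stand beside 55.2% of tested genes, with a median of 0.0086 beside 0.015 for all. With the GC trend removed the median was -0.0013 beside -0.0011 for all. At an unadjusted p below 0.05, 4 were higher and 2 lower, beside 15.9% of tested genes in either direction. Ciart, the CLOCK and ARNTL repressor also known as Chrono and listed as Gm129, was at 8.07, 7.71 and 6.56 TPM with DMSO, at 8.03, 6.57 and 7.82 TPM with NAT and at 8.72, 10.3 and 9.70 TPM with P7C3-A20. P7C3-A20 stood above both other groups, by 0.32 ± 0.10 against DMSO (unadjusted p = 0.00949, limma adjusted p = 0.192), or 0.28 with the GC trend removed. Usp2 was at 32.5, 33.8 and 34.7 TPM with DMSO and at 36.2, 37.5 and 40.9 TPM with P7C3-A20, a difference of 0.18 ± 0.05 (adjusted p = 0.187). Nono, which encodes a PER partner, was among the lower values (-0.074 ± 0.028). Tef, the third of the D-box activators, and Hdac3, which encodes a corepressor enzyme of the REV-ERB receptors, were at 0.10 ± 0.04 and 0.077 ± 0.032. Tef was at 0.052 and Hdac3 at 0.081 with the GC trend removed.

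Between NAT and P7C3-A20, 22 of the 30 were positive, beside 54.0% of tested genes, with a median of 0.062 beside 0.011 for all. With the GC trend removed 20 were positive, with a median of 0.018 beside 0.0009 for all. At an unadjusted p below 0.05, 5 were higher and 3 lower, beside 15.8% of tested genes. Hlf had the lowest p. The difference of Ciart was -0.32 ± 0.10 (adjusted p = 0.216). Tipin, which encodes the partner of TIMELESS, was at 0.20 ± 0.06, Hdac3 at -0.081 ± 0.032 and the checkpoint kinase gene Wee1 at 0.16 ± 0.07. Tipin was at 0.11 with the GC trend removed.

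The kinase genes Csnk1d and Csnk1e, whose products mark PER proteins for degradation, differed from DMSO by 0.040 ± 0.034 and -0.067 ± 0.055 with NAT and by 0.055 ± 0.034 and 0.055 ± 0.055 with P7C3-A20. With the GC trend removed the values were 0.012 and -0.095 with NAT, and those with P7C3-A20 turned to -0.0051 and -0.026. Csnk1e was lower with NAT than with P7C3-A20 without overlap, by -0.12 ± 0.05 (unadjusted p = 0.0469, limma adjusted p = 0.311), or -0.069 with the GC trend removed. The E-box repressor gene Bhlhe40 stood at -0.010 ± 0.071 and -0.030 ± 0.071, and Bhlhe41 at 0.12 ± 0.08 and 0.047 ± 0.084. Npas2, which encodes a substitute for CLOCK in the forebrain, was low, at 2.28 to 3.71 TPM, and differed from DMSO by 0.066 ± 0.15 with NAT and 0.0065 ± 0.15 with P7C3-A20. Nampt, the rate-limiting enzyme gene of NAD salvage, is rhythmic through its E-boxes, and P7C3-A20 has been reported to act on its product. It was at 18.6, 18.5 and 19.8 TPM with DMSO, at 20.7, 19.3 and 22.9 TPM with NAT and at 19.6, 19.4 and 19.9 TPM with P7C3-A20. Its log2 fold changes were 0.13 ± 0.07 (95% interval -0.012 to 0.28, adjusted p = 0.453) and 0.047 ± 0.066 (-0.097 to 0.19). Removal of the GC trend gave 0.10 and 0.11, and the difference between the compounds went from 0.086 to -0.0036.

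**Figure D5:**
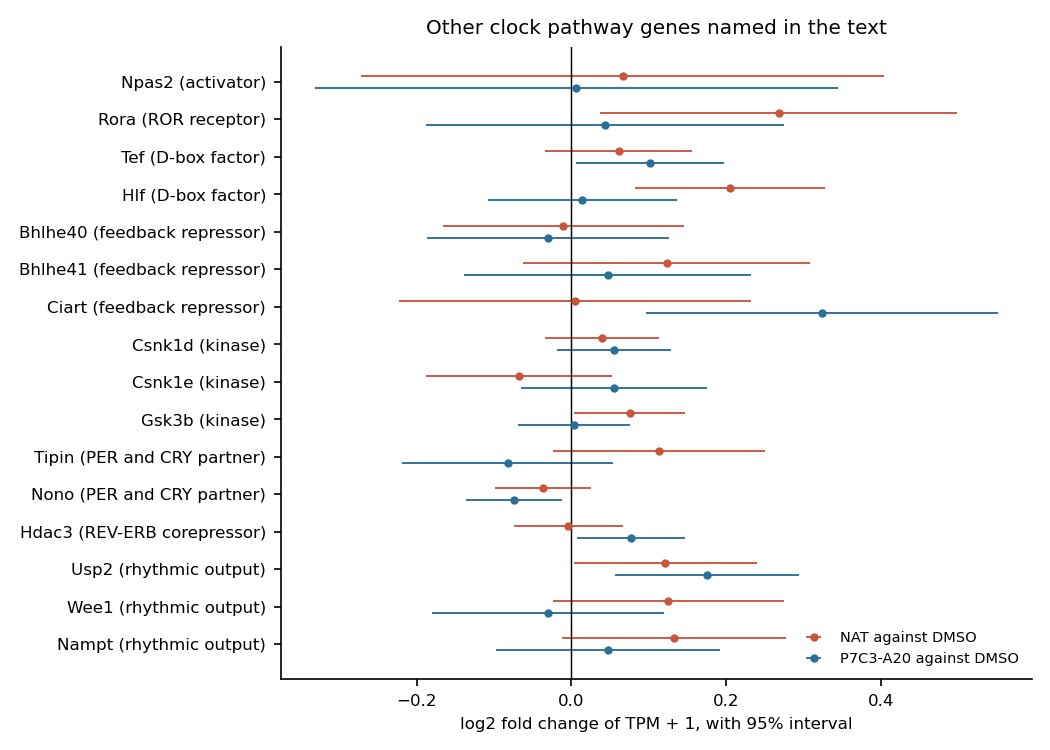
Log2 fold change of TPM + 1 with 95% intervals (horizontal axis) of the other clock pathway genes named in the text for NAT and P7C3-A20 against DMSO, with the role of each gene in brackets. Hlf and Rora lie to the right of 0 for NAT (0.20 and 0.27), and Ciart and Usp2 for P7C3-A20 (0.32 and 0.18).

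Per1 belongs both to the clock and to the genes that cells induce first after a stimulus, so 6 of the latter were set beside it, a choice made with their values known. Fosb, an AP-1 subunit gene, was at 132, 111 and 145 TPM with DMSO and at 74.5, 68.6 and 78.3 TPM with NAT, and it fell by 0.79 on the log2 scale (SE 0.10, limma adjusted p = 0.0234). Ier2, Nr4a1, Fos and Junb were at -0.41 ± 0.07, -0.51 ± 0.14, -0.29 ± 0.07 and -0.24 ± 0.09 and did not pass in limma, and Egr1 was at -0.011 ± 0.049. Voom called Fosb, Ier2, Fos and Nr4a1, with adjusted p of 2.104e-07, 0.000678, 0.00209 and 0.0110. For Per1 the difference with NAT was -0.0064 ± 0.065, with a 95% interval from -0.15 to 0.14. That interval lay above those of Fosb (-1.01 to -0.58), Ier2 (-0.57 to -0.24) and Nr4a1 (-0.81 to -0.21), and it overlapped those of Fos (-0.45 to -0.13), Junb (-0.44 to -0.050) and Egr1 (-0.12 to 0.097). Between NAT and P7C3-A20 the 6 ranged from -0.60 for Nr4a1 to -0.11 for Egr1, and Per1 was at -0.11. With the GC trend removed they ranged from -0.54 to -0.0525, and Per1 was at -0.032. For P7C3-A20 against DMSO the 6 ranged from -0.30 for Fosb to 0.13 for Junb, and Per1 was at 0.0997. In these 2 comparisons limma called none of these genes. Voom called all but Egr1 and Per1 between the compounds, and Fosb for P7C3-A20. Differences between these genes were not tested.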

How the data were processed

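Total RNA of 9 samples was made into bulk libraries by a TruSeq RNA kit; the labels' protocols name it without saying whether strand was kept. The deposited table holds TPM, which the authors scaled so that every library sums to 1000000. Bowtie 0.12.2 and the builds mm8 and mm9 appear, with no role, per the submitters' processing notes. The sources used here do not give the read counter, annotation or filters.

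Groups and replicate numbers came from the sample titles. The 9 libraries entered 1 limma-trend fit of log2(TPM + 1) on group, over 13839 genes with at least 1 TPM in at least 3 libraries (limma 3.58.1, R 4.3.3). Tests were two-sided, with Benjamini-Hochberg adjustment over all tested genes and a call below 0.05; errors of fold changes are SE. A pseudocount of 1 slightly understates changes of low genes. Whole reads were recovered from TPM steps for 19301 of 19302 genes with any value (tolerance at most 0.02 reads), which set the depth and a voom alternative. GC content was that of the longest GENCODE M21 transcript (GRCm38), found for 13693 tested genes and all 10 clock genes, and its trend was removed per library with a spline of 5 degrees of freedom. As those builds differ from the references used, coordinates are given only for RefSeq sequences and GENCODE exons. Scripts were tested on simulated data.

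The clock genes, the pathway list of 30 genes and the marker lists were chosen with earlier results of these data known. All 10 clock genes are named. From the pathway list, genes below an unadjusted p of 0.05 were named, at most 6 a comparison, with Nampt, Csnk1d, Csnk1e, Bhlhe40, Bhlhe41, Rora and Npas2, although some genes the rule names are not reported here; Thra and Sphk2 were added for their overlap. Alternatives were the replicate block, with and without GC removal, quantile normalization, other filters, a pseudocount of 0.1, the compared groups alone, voom, GC removal and each library left out.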

Additional observations from a re-analysis of the deposited data

How the results depend on the processing

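Under every alternative run, with each library of the compared groups left out in turn, no clock gene was called in any comparison, and the lowest adjusted p of a clock gene was 0.0924, for Nr1d1 with P7C3-A20 in the fit with the replicate block. Over all tested genes, correlations of deviations from the group means ran from -0.062 to 0.067 between same-numbered libraries. Between differently numbered libraries they ran from -0.09 to 0.099. Taken over all genes, these values cannot decide whether the clock genes were paired by replicate number. With the replicate block the count at an unadjusted p below 0.05 was 4 for NAT, 3 for P7C3-A20 and 4 between the compounds. Called clock genes stayed at 0. The share of all tested genes below that unadjusted p was not counted in this fit, so these counts do not set the clock genes apart.

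Of 450 alternative values of single genes, 418 kept their direction and 32 changed it, all from main differences no larger in size than the 0.0997 of Per1 with P7C3-A20. The replicate block, the other filters and the compared groups alone return the main difference itself, so their values could not change direction. GC removal with the block likewise repeats the values of GC removal alone. The 418 therefore overstates how many separate checks kept the direction. With the GC trend removed, alone or with the replicate block, Per1 was at -0.0016 and Nr1d2 at 0.023 for P7C3-A20 against DMSO, and Per2 at 0.028 and Cry2 at 0.014 between the compounds. Quantile normalization gave -0.0003 for Arntl with P7C3-A20 and -0.0069 for Dbp between the compounds, and voom gave -0.029 for Dbp there.

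With 1 library left out, values for NAT against DMSO ranged from -0.049 to 0.061 for Per1, -0.078 to 0.059 for Per2 and -0.0015 to 0.11 for Cry2. For P7C3-A20 against DMSO they ranged from -0.030 to 0.058 for Arntl, -0.056 to 0.036 for Per2, -0.0065 to 0.11 for Cry1 and -0.069 to 0.020 for Nr1d2. Between the compounds they ranged from -0.078 to 0.059 for Per2, -0.093 to 0.014 for Cry2 and -0.063 to 0.042 for Dbp. The cause was not tested. Over all genes the calls were 4 for NAT, 3 for P7C3-A20 and 0 between the compounds. Voom gave 29, 273 and 301, the replicate block 3, 7 and 1, the compared groups alone 7, 5 and 5, a minimum of 5 TPM 2, 0 and 0, a pseudocount of 0.1 1, 0 and 0, no filter 5, 3 and 0, GC removal 5, 2 and 0 or, with the block, 6, 1 and 0, and leaving out 1 library 1 to 11, 1 to 10 and 0 to 1. With 1 library left out Cry1 ranged from 0.16 to 0.28 for NAT and Nr1d1 from 0.115 to 0.20 for P7C3-A20, and with the GC trend removed they were 0.19 and 0.083. Dbp ranged from 0.094 to 0.21 for NAT and from 0.099 to 0.21 for P7C3-A20, Per3 from 0.090 to 0.21 for NAT, and Clock from -0.15 to -0.068 for P7C3-A20. Counting reads alone gives Cry1 a coefficient of variation of 5.56% with DMSO, beside a measured 8.96%.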
